A study of Rattus norvegicus with 32 samples.

Results

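The cell division and DNA replication genes are a set of 40 rat genes whose products copy the DNA, drive the cell into mitosis, pull the chromosomes apart and split the cell. They were found by name, as every non-control probe whose gene name, in either of the annotation versions held by the scanner files, was that of a member. This gave 61 of the 45598 probes on the array. Of the 40 genes, 24 had 1 probe, 13 had 2, 1 had 3 and 2 had 4, and each gene is described by its probe with the highest mean signal unless another probe is named.

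Cells that divide switch on these genes in order. The MCM2-7 proteins form the ring-shaped helicase that is loaded on DNA before replication and unwinds it, PCNA is the clamp that holds the polymerase on the DNA, and RRM2, TYMS and TK1 supply nucleotides. Cyclins A and B with CDK1 then start mitosis, and kinases, kinesins, kinetochore proteins and cytokinesis factors complete it. Most heart muscle cells of an adult rat have left the cell cycle, and dividing cells of the adult ventricle are found mainly among its other cell types, such as endothelial cells and fibroblasts.

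The samples were left ventricles of male and female Wistar rats, taken 20 h after sham surgery, after caecal ligation and puncture (CLP), which opens the gut and causes abdominal sepsis, or after CLP with an infusion of landiolol, a short-acting β1-blocker. Each sex had 5 sham, 5 CLP and 6 CLP plus landiolol arrays. All rats received buprenorphine and the same infusion volume without antibiotics, and the hearts were perfused ex vivo before they were frozen. RNA came from whole tissue, so fewer cells of a type and less RNA per cell cannot be told apart.

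Each of the 32 arrays carried the Cy3-labelled RNA of a single rat, and an array had 34540 to 42812 spots well above background. Values are log2 processed signals, quantile-normalised within a sex except for the tests between the sexes, and a difference of 1 is a doubling. Differences were tested with limma over all probes kept. A gene was called at a false discovery rate (FDR) set to 1% for comparisons with sham and to 5% for landiolol against CLP. Males lay on slides 1 and 2 and females on slides 3 and 4, with all treatments on each slide. The headers of the scanner files name a protocol for slide 3 that differs from that of slides 1, 2 and 4. In females, protocol therefore goes with slide. In females, all 5 sham arrays lay in row 1 of their slides and all 6 landiolol arrays in row 2, so that treatment and row can be separated only through the CLP arrays, 3 of which lay in row 1 and 2 in row 2.

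Of the 40 members, 32 were kept in each sex, meaning that in some group 80% or more of the arrays read them well above background. A gene that passes through a single group can be high only there, so counts over the 32 do not speak for all 40. Of all members, 23 were well above background on all 32 arrays, among them Pcna, Mcm2, Mcm3, Mcm4, Mcm5, Mcm7, Cdk1, Mki67, Plk1 and Cdc20. The 8 that were not kept were the kinases Melk, Bub1b and Aurkb, the kinetochore genes Cenpe and Cenpf, the motor gene Kif2c, and the spindle factors Tpx2 and Hmmr. Cenpe and Hmmr were well above background on 0 of 32 arrays, Bub1b and Melk on 3, Kif2c on 7, Cenpf on 10, Aurkb on 11 and Tpx2 on 12. In such genes a low signal is a limit of detection and not a measured absence.

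The question of the first comparison was which of these genes differed 20 h after CLP. On their brightest probes, the mitotic genes gave no called difference in either sex, and the genes that passed the test were subunits of the replicative helicase. In the males, 2 of 32 members passed, Mcm4 with a rise and Mcm5 with a fall, where 7.81% of all probes kept passed. In the females, 1 of 32 passed, Mcm4 again with a rise, where 3.63% of all probes passed. The members' share was thus near the background share in both sexes. Before adjustment, 12.5% of the members in males and 6.25% in females had p under 0.05, against 28.8% and 23.1% of all probes. The median log2 difference over the 32 members was -0.07 in males and -0.08 in females, beside 0.01 and -0.01 over all probes.

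Mcm4, whose product is a subunit of the MCM2-7 ring, was the member that rose in both sexes. In males, its log2 signal was 9.52, 9.36, 9.66, 9.15 and 9.56 in the sham group and 10.03, 9.93, 10.47, 10.38 and 10.17 in the CLP group. The lowest CLP array thus lay above the highest sham array. The difference was 0.74 (SE 0.14, adjusted p = 0.00179, limma), a 1.68-fold rise, and it was 0.70 within slide 1 and 0.82 within slide 2. In females, the sham arrays read 8.92, 8.98, 9.48, 9.27 and 9.43 and the CLP arrays 10.19, 9.73, 10.15, 10.21 and 10.36. Again the groups did not overlap, with a difference of 0.91 (SE 0.17, adjusted p = 0.00338, limma), a 1.88-fold rise. Within slides 3 and 4 the female difference was 0.69 and 1.11. When slide row was added to the fit, which was decided once the values were known, the female difference was 0.80 with an adjusted p of 0.0287 in limma, no longer past the FDR of 1%. Over the 27 alternatives tried for this value, the adjusted p ranged from 0.00176 to 0.0287 and the call was lost in 3.

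The rise of Mcm4 did not rest on a single probe sequence. The probe described above lies at chr11:87183282-87183341 in the rn4 coordinates of the files, and a second probe that shares 56 of its 60 bases gave 0.76 in males and 0.91 in females (adjusted p = 0.00192 and 0.00404, limma). Another probe, without shared bases, starts 4930 bases nearer the 5′ end of the gene, at chr11:87178352-87178411 on the plus strand, and is shown as another reading of this gene. Whether it binds the same transcript was not tested.
Mcm4 upstream probe: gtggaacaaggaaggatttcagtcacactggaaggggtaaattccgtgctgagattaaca
On this probe, the male sham arrays read 4.89, 5.72, 5.61, 5.58 and 5.52 and the male CLP arrays 6.05, 6.03, 6.39, 6.82 and 6.53, without overlap. The difference was 0.90 in males (SE 0.17, adjusted p = 0.00187, limma) and 0.72 in females, where it was not called (adjusted p = 0.0468). The last Mcm4 probe was well above background on 0 of 32 arrays and was not tested. No annotation of rn4 was used here, so exon and untranslated parts are not stated for any probe.

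Mcm5, another subunit of the same ring, went the other way. In males, its log2 signal was 9.04, 9.48, 9.38, 9.03 and 9.10 in the sham group and 8.80, 8.25, 8.41, 8.39 and 8.46 in the CLP group. Every CLP array lay below every sham array. The difference was -0.74 (SE 0.14, adjusted p = 0.00254, limma), 1.67-fold lower, with -0.77 and -0.74 within slides 1 and 2. In females, the sham arrays read 8.67, 9.08, 8.80, 8.61 and 8.98 and the CLP arrays 8.63, 8.14, 8.08, 8.09 and 7.88, so that the first CLP array lay inside the sham range. The female difference of -0.67 was not called (adjusted p = 0.0294, limma). A second Mcm5 probe, which starts 2032 bases nearer the 5′ end of the gene at chr19:13998935-13998994 on the plus strand (rn4), is shown as the other reading of this gene.
Mcm5 upstream probe: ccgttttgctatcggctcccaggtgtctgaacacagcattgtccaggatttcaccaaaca
It gave -0.72 in males and -0.81 in females, in the same direction as the first but not called (adjusted p = 0.181 and 0.186, limma).

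The other subunits of the ring showed no such pair of opposite changes. Mcm2 differed between CLP and sham by 0.07 in males and 0.19 in females, Mcm3 by -0.01 and -0.12, and Mcm6 by 0.00 and -0.05. Mcm7 differed by 0.63 in males and 0.31 in females, with SEs of 0.37 and 0.30. None of these was called. For Pcna, the sliding clamp, the male sham arrays read 9.99, 11.02, 10.98, 10.97 and 10.51 and the male CLP arrays 10.56, 10.96, 11.35, 11.03 and 11.13. The female sham arrays read 11.11, 11.75, 11.42, 11.37 and 11.18 and the female CLP arrays 11.75, 11.74, 11.84, 11.96 and 10.59. These ranges overlapped in both sexes, and the differences of 0.31 and 0.21 were not called. Of the nucleotide supply genes, Tk1, which encodes thymidine kinase, differed by -0.40 in males (adjusted p = 0.106, limma) and -0.10 in females. Rrm2, a ribonucleotide reductase subunit, differed by -0.27 and 0.05, and Tyms, thymidylate synthase, by 0.22 and 0.02.

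**Figure D1:**
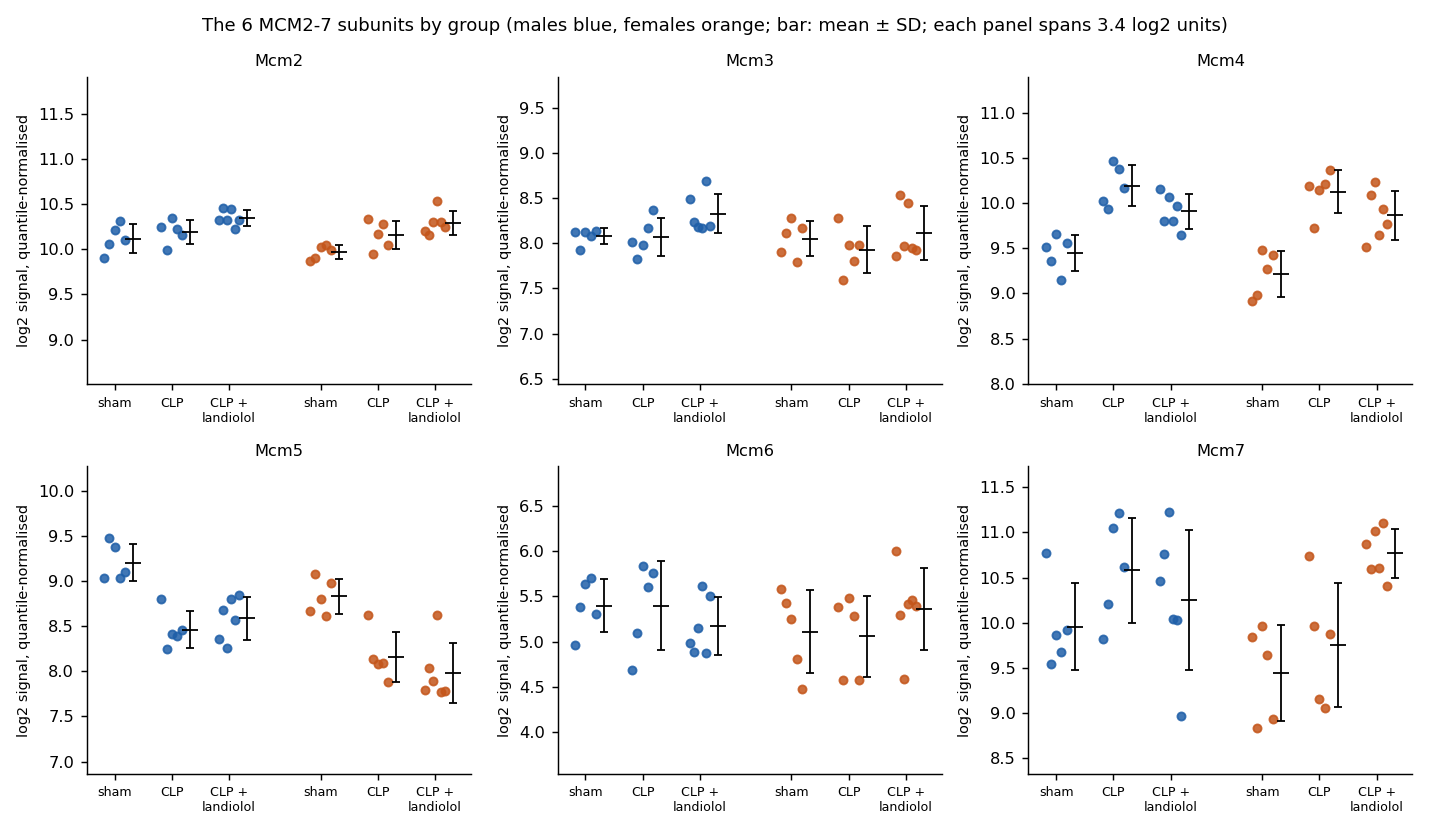
Log2 quantile-normalised signal (vertical axes) of the 6 MCM2-7 subunits on each array by group, males in blue and females in orange, with bars for the mean ± SD. Mcm4 lay higher in CLP than in sham in both sexes. Mcm5 lay lower in CLP in males, while in females the groups overlapped and the difference was not called. Mcm7 was above every sham array on all 6 female landiolol arrays, while Mcm2, Mcm3 and Mcm6 gave no called difference.

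The genes of mitosis gave wide and overlapping values. For Mki67, which encodes the Ki-67 protein used to count cycling cells, the male sham arrays read 8.56, 8.34, 8.74, 9.003 and 8.67 and the male CLP arrays 9.10, 8.56, 7.96, 9.13 and 8.43. The female sham arrays read 8.59, 9.13, 8.85, 8.62 and 9.20 and the female CLP arrays 9.08, 7.88, 7.93, 8.44 and 8.99. The male CLP range enclosed the sham range, the female CLP group had 3 arrays below every sham array, and the differences of -0.03 in males (SE 0.23) and -0.42 in females (SE 0.25) were not called. For Top2a, a topoisomerase that untangles replicated chromosomes, male sham arrays read 4.48, 4.88, 5.54, 6.23 and 4.86 and male CLP arrays 5.03, 5.15, 3.16, 6.37 and 4.46. Female sham arrays read 5.46, 5.56, 5.41, 5.38 and 5.73 and female CLP arrays 6.01, 4.63, 4.45, 5.16 and 5.10. The male CLP group held both the highest and the lowest Top2a value of the males in these groups. Top2a was well above background on 12 of 16 male and 15 of 16 female arrays, and its differences of -0.36 and -0.44 were not called. For Cdk1, the kinase that starts mitosis, male sham arrays read 7.37, 7.44, 8.42, 9.07 and 8.05 and male CLP arrays 8.12, 8.14, 6.62, 9.25 and 7.59. Female sham arrays read 7.48, 8.47, 7.70, 8.46 and 8.28 and female CLP arrays 9.04, 7.20, 7.22, 8.21 and 7.91. The CLP range of Cdk1 enclosed the sham range in both sexes, and the differences were -0.13 and -0.16.

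Over the 22 kept genes of division, 0 passed the FDR of 1% for CLP against sham in limma in either sex. Of all probes, 7.81% passed in males and 3.63% in females. At these shares few of 22 genes would pass, so the 0 does not set the division genes apart. In males 1 of them, Cenpa, had an unadjusted p under 0.05, and in females 0 did, against 28.8% and 23.1% of all probes. SAM, the permutation method that was run beside limma, called the same 2 members as limma in males, Mcm4 and Mcm5, and Mcm4 in females, and thus 0 of the division genes. The median difference over the division genes was -0.12 in males and -0.16 in females. Among the cyclins, Ccnb1 differed by -0.18 in males and -0.44 in females, Ccnb2 by 0.04 and -0.04, and Ccna2 by -0.26 and -0.03. Foxm1, a transcription factor of mitotic genes, differed by 0.11 in both sexes, and Cdc20, an activator of the anaphase-promoting complex, by 0.23 and 0.19. Among kinases, Plk1 differed by 0.03 and -0.27, Bub1 of the spindle checkpoint by -0.19 and -0.41, and Ttk by -0.14 and -0.72 with SEs of 0.53 and 0.56. Birc5, encoding survivin of the chromosomal passenger complex, differed by 0.17 and -0.23, and Ube2c, the ubiquitin-conjugating partner of the anaphase-promoting complex, by -0.02 and -0.17. None of these was called. Among the spindle and midzone genes, the kinesins Kif20a, Kif23 and Kif11 differed by -0.12, -0.24 and -0.10 in males and by 0.11, 0.44 and -0.56 in females. Nusap1 and Prc1, which bundle microtubules, differed by -0.24 and 0.21 in males and by -0.07 and 0.24 in females. Racgap1, of the complex that organises the central spindle, differed by -0.12 and -0.15, and Ect2, which positions the cleavage furrow, differed by -0.72 and -0.63 with an SE of 0.48 in both sexes.

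**Figure D2:**
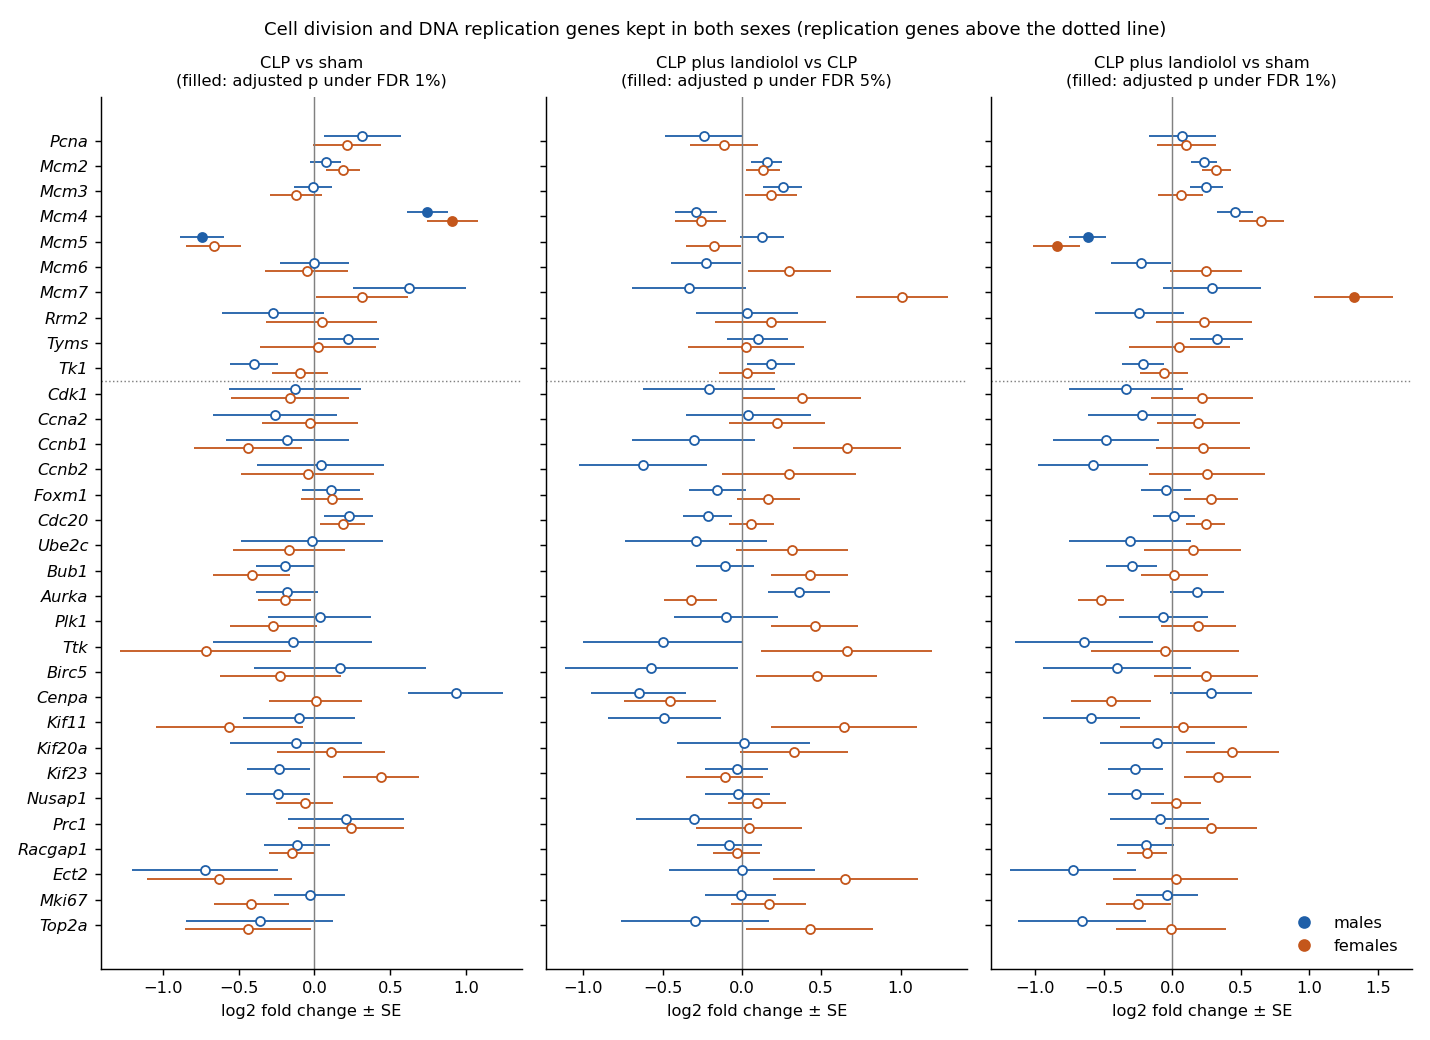
Log2 fold change ± SE (horizontal axes) of the 32 members kept in both sexes for CLP against sham, CLP plus landiolol against CLP, and CLP plus landiolol against sham, males in blue and females in orange, with filled circles for those that passed the FDR. The filled circles are Mcm4 and Mcm5 in males and Mcm4 in females for CLP against sham, none for landiolol against CLP, and Mcm5 in both sexes with Mcm7 in females for landiolol against sham.

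Cenpa, which encodes the histone H3 variant that marks centromeres, was the only member whose tested probes gave different calls for CLP against sham in both sexes. The probe with the higher mean signal lies at chr6:25685603-25685662 on the minus strand (rn4). On it, male sham arrays read 7.16, 7.16, 7.65, 6.79 and 7.94 and male CLP arrays 8.57, 8.10, 8.36, 8.80 and 7.54, which overlapped. The difference of 0.93 in males was not called (adjusted p = 0.0545, limma), and in females it was 0.01. The other probe starts 3333 bases nearer the 5′ end of the gene, at chr6:25688936-25688995 on the minus strand, and is shown because its signal carried the largest differences among all probes of the members.
Cenpa upstream probe: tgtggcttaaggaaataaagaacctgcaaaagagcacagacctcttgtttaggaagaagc

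On the upstream probe of Cenpa, the male sham arrays read 2.08, 3.996, 4.502, 4.77 and 2.09 and the male CLP arrays 6.97, 6.83, 7.38, 7.70 and 6.39. The female sham arrays read 3.13, 4.82, 3.63, 3.96 and 5.44 and the female CLP arrays 6.602, 7.08, 7.77, 7.59 and 6.65. All CLP arrays lay above all sham arrays in both sexes. The difference was 3.57 in males (SE 0.51, adjusted p = 0.000233, limma) and 2.94 in females (SE 0.43, adjusted p = 0.000579). The probe was well above background on 5 of 5 CLP arrays but on 2 of 5 sham arrays in each sex. It passed the filter on low values through the CLP group alone, where it was high, so it had to differ to be tested, and its differences are given as a description of these arrays. Their size also depends on how background is treated. With normexp background correction and an offset of 50, the differences were 1.32 and 1.24, still past the FDR. Within slides the difference was 4.02 and 3.26 in males and 3.26 and 2.62 in females. Whether another transcript binds this probe was not tested.

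**Figure D3:**
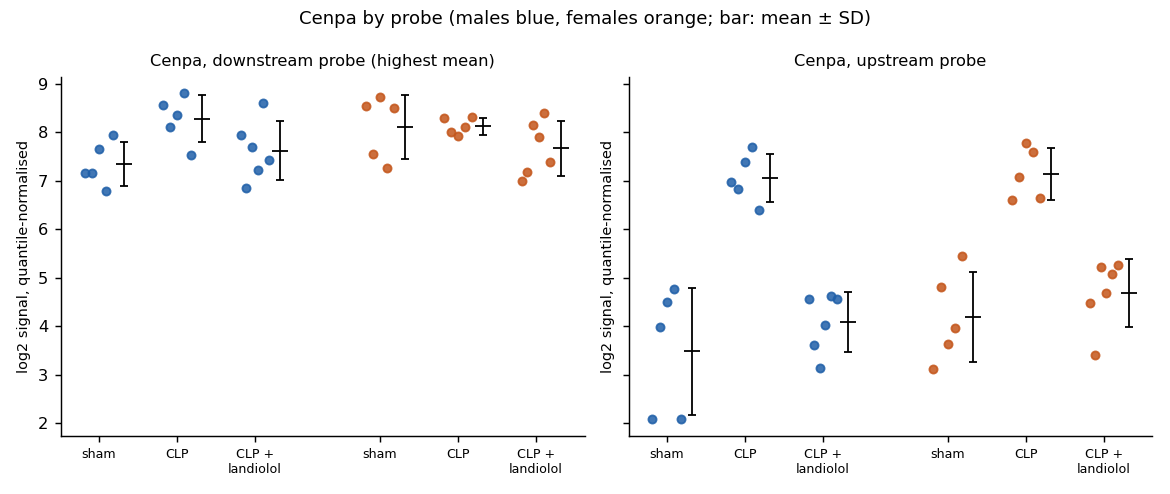
Log2 quantile-normalised signal (vertical axis) of the 2 Cenpa probes on each array by group, males in blue and females in orange, with bars for the mean ± SD. On the upstream probe all CLP arrays lay above all sham and all landiolol arrays of the same sex, and on the downstream probe the groups overlapped.

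The next comparison asked which of these genes differed when landiolol was infused after CLP. Of the 32 members, 0 passed the FDR of 5% in limma in males, where 1.56% of all probes passed, and 0 in females, where 0.0945% of all probes passed. Before adjustment, 2 members in males (Mcm4 and Cenpa) and 1 in females (Mcm7) had p under 0.05, and SAM called 0 in both sexes. The share at p under 0.05 was 6.25% of the members in males and 3.12% in females, against 14.8% and 9.34% of all probes. The median over the members was -0.13 in males and 0.18 in females, beside -0.01 and 0.03 over all probes. The division genes had a median of -0.18 in males, with 19 of 22 below 0, and of 0.31 in females, with 18 of 22 above 0. Of all probes, 49.1% lay above 0 in males and 54.8% in females. The contrast of the division genes between the sexes held no called gene. Division genes rose and fell together from array to array, as described further on, so these counts are not counts of independent genes. They also rest on the brightest probes. Over all members, 11 of 17 other probes in males and 12 of 16 in females had the direction of the brightest probe. Ccnb1 differed by -0.30 in males (SE 0.39) and 0.66 in females (SE 0.34), Ccnb2 by -0.62 and 0.30, Kif11, a spindle motor, by -0.49 and 0.64, and Plk1 by -0.10 and 0.46.

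Landiolol against CLP passed the FDR only on probes other than the brightest of a gene. The upstream probe of Cenpa read 3.14 at the lowest, 4.30 at the median and 4.62 at the highest over the 6 male landiolol arrays, and 3.41, 4.88 and 5.25 over the 6 female ones. All landiolol arrays lay below all CLP arrays of their sex. The difference from CLP was -2.97 in males (SE 0.48, adjusted p = 0.00699, limma) and -2.45 in females (SE 0.41, adjusted p = 0.0468), with -3.30 and -2.63 within the male slides and -2.40 and -2.56 within the female slides. The probe was well above background on 2 of 6 male and 4 of 6 female landiolol arrays and was kept through the CLP group alone, so this difference too is a description. With normexp the differences were -1.26 and -1.14. The female call was lost in 15 of 26 alternatives, with an adjusted p from 0.00289 to 0.308, the highest with slide row in the fit, where the difference was -2.43. Landiolol against sham differed by 0.60 and 0.49 on this probe, which was not called. On the downstream probe, landiolol against CLP gave -0.65 in males and -0.45 in females (adjusted p = 0.326 and 0.681, limma).

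The upstream probe of Mcm4 was also called in males. Its male landiolol arrays read 5.58 at the lowest, 5.65 at the median and 5.74 at the highest, all below the lowest CLP array at 6.03. The difference was -0.71 (SE 0.16, adjusted p = 0.0381, limma), and in females it was -0.20 (adjusted p = 0.836). The male call was lost in 13 of 27 alternative settings, with an adjusted p from 0.00794 to 0.118. On the brightest probe of Mcm4, landiolol arrays read 9.64, 9.89 and 10.16 at the lowest, median and highest in males and 9.52, 9.85 and 10.23 in females. Their medians lay between those of sham and CLP, while their ranges overlapped the CLP range in both sexes and the sham range in males. There the difference from CLP was -0.29 in males and -0.26 in females (adjusted p = 0.327 and 0.666, limma).

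For the other genes given array by array, the landiolol values overlapped those of the sham and CLP groups. Mki67 read 7.92 at the lowest, 8.81 at the median and 8.94 at the highest in males and 8.33, 8.52 and 9.13 in females. Top2a read 3.99, 4.38 and 5.62 in males and 3.66, 5.81 and 6.34 in females. Cdk1 read 7.04, 7.73 and 8.70 in males and 7.07, 8.40 and 9.03 in females, and Pcna 9.89, 10.95 and 11.22 in males and 11.27, 11.45 and 11.83 in females. Landiolol against CLP differed for Mki67 by -0.01 and 0.17, for Top2a by -0.30 and 0.43, for Cdk1 by -0.21 and 0.38 and for Pcna by -0.24 and -0.11, none of them called.

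The last comparison set the landiolol groups against sham, and the members called were again helicase genes. In males, 1 of 32 members was called, Mcm5, where 4.15% of all probes passed, and in females 2 of 32, Mcm5 and Mcm7, where 5.25% of all probes passed. This comparison shares its sham arrays with the first and its landiolol arrays with the second. Before adjustment 3 members in males and 5 in females had p under 0.05, and SAM called 1 in males and 3 in females, Mcm4 being the addition. The share at p under 0.05 was 9.38% of the members in males and 15.6% in females, against 24.2% and 26.7% of all probes. The median over the members was -0.22 in males and 0.17 in females, beside 0.00 over all probes in both sexes. Over the division genes it was -0.27 and 0.17, and over the replication genes 0.15 and 0.17.

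Mcm5 read 8.26 at the lowest, 8.62 at the median and 8.85 at the highest in the male landiolol group and 7.78, 7.84 and 8.62 in the female one. The male landiolol arrays lay below all sham arrays, and in females 1 landiolol array, at 8.62, lay just inside the sham range. The difference from sham was -0.62 in males (SE 0.14, adjusted p = 0.00981, limma) and -0.84 in females (SE 0.17, adjusted p = 0.00473). The male call was lost in 19 of 27 alternative settings with values from -0.67 to -0.54 and an adjusted p from 0.00249 to 0.0318. The female call was lost in 8 of 27, with an adjusted p from 0.000703 to 0.619, the highest with slide row in the fit, where the difference was -0.55. Within slides it was -0.83 and -0.43 in males and -0.996 and -0.698 in females. Mcm4 differed from sham by 0.46 in males and 0.65 in females (adjusted p = 0.0385 and 0.0165, limma), not called at 1%. In females its call was gained with array weights (adjusted p = 0.00388) and with the authors' table (adjusted p = 0.00979), and its female landiolol arrays lay above all sham arrays.

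Mcm7, a further subunit of the ring, was called in females only for landiolol against sham. Its female sham arrays read 9.84, 8.83, 9.97, 9.64 and 8.93 and its female CLP arrays 10.74, 9.96, 9.15, 9.05 and 9.88. The female landiolol arrays read 10.41 at the lowest, 10.74 at the median and 11.10 at the highest, above every sham array. The difference from sham was 1.32 (SE 0.29, adjusted p = 0.0073, limma), a 2.50-fold rise, with 1.42 and 1.30 within slides 3 and 4. The call was lost in 11 of 27 alternatives, with an adjusted p from 0.00172 to 0.202, the highest with slide row in the fit, where the difference was 1.81. In males, sham arrays read 10.78, 9.54, 9.86, 9.67 and 9.92, CLP arrays 9.82, 10.21, 11.05, 11.22 and 10.62, and landiolol arrays 8.97, 10.25 and 11.23 at the lowest, median and highest. The male groups overlapped, and landiolol against sham differed by 0.29. Aurka, a centrosome kinase, was the division gene with the lowest p in females, at -0.52 (adjusted p = 0.0516, limma), and its second probe went the other way there, with 0.26, as it did in CLP against sham, with 0.21 against -0.20.

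Whether the 2 sexes differed in any of these responses was tested as an interaction over all 32 arrays, quantile-normalised together. Of 32 members, 0 passed the FDR of 5% in limma for CLP against sham, landiolol against CLP or landiolol against sham, and 0% of all probes passed in each. Before adjustment, p was under 0.05 for 1, 2 and 2 members, and the lowest adjusted p over the 3 comparisons was 0.642. For Mcm7, the response to landiolol against CLP was higher by 1.36 in females than in males (SE 0.47, adjusted p = 0.972 in limma). For Aurka it was lower in females, by -0.68 (SE 0.26, adjusted p = 0.972). The call of Mcm7 in 1 sex is therefore not shown to differ between the sexes.

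What the division genes did show was a shared variation between rats of the same group. After the group mean was taken out of each gene, the 22 division genes had a mean pairwise correlation of 0.577 over the 16 male arrays, with 207 of 231 pairs above 0, and of 0.491 over the 16 female arrays, with 195 of 231 above 0. The mean over all probes was 0.00102 and 0.00371. Quantile normalisation gives all arrays of a sex the same distribution, which holds this mean near 0. It is therefore not an independent background for the division genes. The points of these correlations share their arrays, their normalisation and their RNA, so the values are a description. When the 2 arrays farthest from their group were left out, which was decided once the values were known, the mean was 0.490 in males, with 204 of 231 pairs above 0, and 0.421 in females, with 187. When the mean of each group on each slide was taken out instead, also decided with the values known, it was 0.571 in males and 0.495 in females.

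Most, but not all, division genes shared this pattern. With Top2a as the reference gene, 17 of the other 21 division genes had a correlation above 0.5 in males and 16 of 21 in females. In males the closest were Cdk1 at 0.94, Bub1 at 0.93 and Ccnb1 at 0.92, and in females Ttk at 0.87, Ube2c at 0.87 and Cdk1 at 0.80. Cenpa at 0.03 and -0.37 and Aurka at -0.10 and -0.32 stood outside it in both sexes. Of the 10 replication genes, Rrm2 alone was above 0.5, at 0.89 in males and 0.75 in females. The MCM subunits had a mean pairwise correlation of 0.054 in males and 0.143 in females among themselves, and of -0.078 and 0.213 with the division genes.

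The median SD of the division genes within groups was 0.638 in males and 0.562 in females, beside 0.335 and 0.369 over all probes and 0.287 and 0.323 for the replication genes. Birc5 reached 0.98 in males and Ttk 0.98 in females, both dim genes with mean log2 levels of 4.97 and 4.49, and the male value of Birc5 includes an array at 2.40. Mki67, with a mean level of 8.64 in males, had an SD of 0.39, and Mcm2 was lowest of the members at 0.13 in both sexes. The part of signal level in these spreads was not tested. The SE of the male difference between CLP and sham was 0.49 for Top2a and 0.14 for Mcm4.

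Some arrays stood high or low in most division genes. Replicate 4 of the male CLP group was the highest of its group in 20 of 22 division genes, with a median deviation of 1.07, and replicate 3 of the same group was the lowest in 18 of 22, with -1.004. Replicate 6 of the male landiolol group and replicate 4 of the male sham group were each the highest in 16 genes, with 0.65 and 0.55. In females, replicate 1 of the CLP group was highest in 15 genes with 0.63, and replicate 3 of the landiolol group was lowest in 18 with -0.81. The 3 male arrays that were the highest of their group in at least 16 division genes came from different groups and all lay on slide 2. The 3 male sham arrays of slide 2 deviated by 0.15, 0.55 and 0.06 and the 2 of slide 1 by -0.21 and -0.32. Other male arrays went against such a split by slide. Slide 2 also held replicate 4 of the landiolol group, lowest in 13 genes with -0.49, and replicate 5 of the CLP group at -0.26. On slide 1, replicates 1 and 2 of the male CLP group deviated by 0.20 and 0.18.

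The brightness of the arrays did not follow this order in the male CLP group, where the lowest and the highest array had 37916 and 37963 spots well above background. The male sham array with high division genes had 42812 such spots, the most of any array, and the female landiolol array with low ones 35978. Deviations of marker lists are medians over the markers kept. For neutrophils these were only S100a8 and S100a9, 2 of 9, which passed the filter only through groups with CLP. On that female array the neutrophil markers lay 1.90 above their group and the fibroblast markers -0.45 from it, and on the high female CLP array the fibroblast markers lay 1.08 above. On the high male CLP array the fibroblast markers deviated by -0.07 and the neutrophil markers by -0.47, and on the low one by -0.51 and 0.25. On replicate 5 of the male CLP group the neutrophil markers lay 1.78 above their group, with the division genes at -0.26. The cardiomyocyte markers deviated by at most 0.20 on any array. The part of brightness and of other cell types in the shared variation was not tested.

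**Figure D4:**
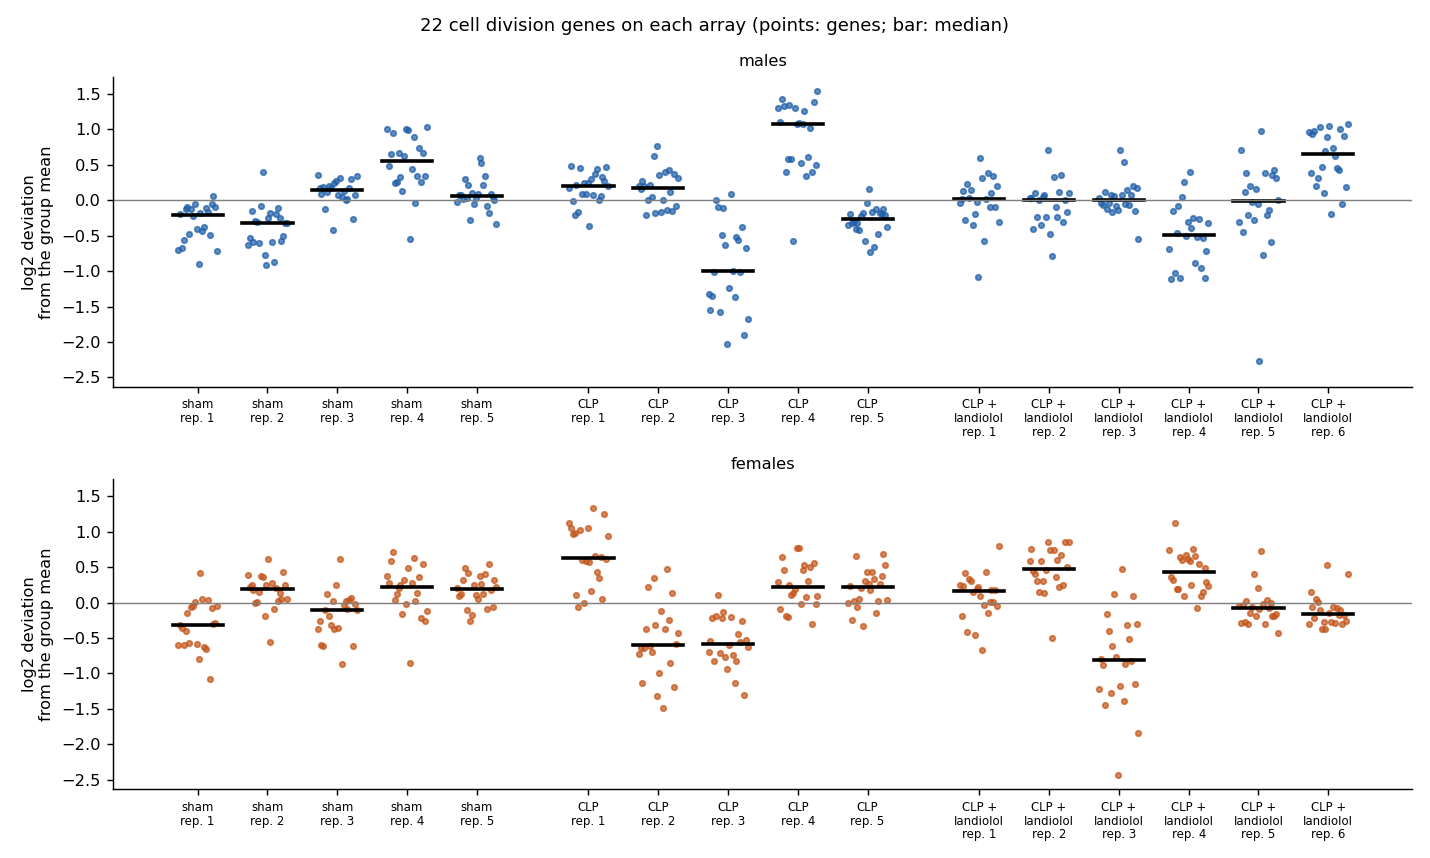
Log2 deviation from the group mean (vertical axes) of each of the 22 division genes, drawn as points, on each array, with a bar for their median, males above and females below. The points of an array move together, from a median of 1.07 on male CLP replicate 4 to -1.004 on male CLP replicate 3, and in females from 0.63 on CLP replicate 1 to -0.81 on landiolol replicate 3.

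Promoters were looked up for all members, among them replication genes and genes that were not kept. The shares below therefore do not describe only the division genes that moved together. RefSeq promoters (build GRCr8, 300 bases around the start of each gene) were matched for 32 of the 40 genes, and those of Mcm4, Rrm2, Ccna2, Foxm1, Ube2c, Aurkb, Tpx2 and Racgap1 were not in the table used. They were searched on both strands for TTTGAA (the core of the CHR element), CCAAT (the box bound by NF-Y) and TTCCCGC (a core of the E2F site), none of which contains another. TTTGAA was found in 17 of 32 members, or 53.1%, against 18.3% of all 33469 promoters. CCAAT was found in 24, or 75%, against 37.5%, and both in 15, or 46.9%, against 7.41%. TTCCCGC was found in 4, Mcm3, Mcm5, Mcm7 and Kif23, or 12.5%, against 4.21%. A match is a description of letters and not a bound site.

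The promoters shown are those of Cdk1, Top2a and Ccnb2, which moved together from rat to rat, of Mcm5 and Mcm7, which were called, and of Cenpa, which did not follow Top2a. They lie at chr20:19265043-19265342 on the plus strand, chr10:84473044-84473343 on the minus strand, chr8:79981609-79981908 on the minus strand, chr19:13488563-13488862 on the plus strand, chr12:22163129-22163428 on the minus strand and chr6:31431503-31431802 on the minus strand. Capitals mark the motifs on either strand, so that a motif of the other strand appears as its reverse complement.
Cdk1: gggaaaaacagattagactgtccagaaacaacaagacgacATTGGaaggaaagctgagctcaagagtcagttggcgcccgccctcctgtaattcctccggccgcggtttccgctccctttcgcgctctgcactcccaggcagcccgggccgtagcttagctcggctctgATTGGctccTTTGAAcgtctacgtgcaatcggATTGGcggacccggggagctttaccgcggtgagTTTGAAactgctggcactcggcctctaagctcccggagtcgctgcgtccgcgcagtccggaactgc
Top2a: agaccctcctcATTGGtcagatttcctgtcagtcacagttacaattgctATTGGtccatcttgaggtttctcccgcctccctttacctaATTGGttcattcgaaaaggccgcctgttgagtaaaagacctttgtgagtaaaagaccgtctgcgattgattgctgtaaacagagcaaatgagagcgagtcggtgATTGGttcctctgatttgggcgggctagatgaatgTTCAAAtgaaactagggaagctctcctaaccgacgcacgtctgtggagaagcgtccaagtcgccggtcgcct
Ccnb2: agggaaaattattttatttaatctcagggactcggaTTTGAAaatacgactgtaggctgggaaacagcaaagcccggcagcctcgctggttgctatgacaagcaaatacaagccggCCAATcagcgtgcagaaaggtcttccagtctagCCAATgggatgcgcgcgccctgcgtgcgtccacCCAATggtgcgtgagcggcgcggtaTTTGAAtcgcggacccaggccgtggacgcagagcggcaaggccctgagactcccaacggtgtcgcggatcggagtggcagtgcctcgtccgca
Mcm5: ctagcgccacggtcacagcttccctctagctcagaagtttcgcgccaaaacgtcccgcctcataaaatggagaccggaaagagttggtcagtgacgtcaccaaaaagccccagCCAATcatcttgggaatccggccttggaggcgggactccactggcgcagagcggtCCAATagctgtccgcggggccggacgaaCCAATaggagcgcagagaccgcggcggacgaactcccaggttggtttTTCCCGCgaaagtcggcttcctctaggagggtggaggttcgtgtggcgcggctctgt
Mcm7: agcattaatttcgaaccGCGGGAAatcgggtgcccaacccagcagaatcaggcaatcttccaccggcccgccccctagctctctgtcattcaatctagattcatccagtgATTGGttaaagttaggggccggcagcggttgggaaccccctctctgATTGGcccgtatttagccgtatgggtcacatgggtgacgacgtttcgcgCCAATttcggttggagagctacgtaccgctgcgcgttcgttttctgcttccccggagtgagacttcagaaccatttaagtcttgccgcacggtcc
Cenpa: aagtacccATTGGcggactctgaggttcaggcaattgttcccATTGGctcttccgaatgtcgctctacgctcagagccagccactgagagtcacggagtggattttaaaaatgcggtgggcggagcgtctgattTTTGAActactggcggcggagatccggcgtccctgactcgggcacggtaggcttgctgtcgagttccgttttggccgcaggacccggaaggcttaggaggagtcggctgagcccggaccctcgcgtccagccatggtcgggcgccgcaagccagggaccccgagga
Cdk1 and Ccnb2 hold 2 copies of TTTGAA and 3 of CCAAT each, and Top2a 1 and 4. Mcm5 and Mcm7 hold 0 copies of TTTGAA, 3 of CCAAT and 1 of TTCCCGC. Cenpa holds 1 of TTTGAA and 2 of CCAAT.

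Other genes of the same processes were examined as 4 lists. Of 48 replication companions (origin recognition, polymerases, clamp loaders and the like), 39 were kept in each sex. Mcm10, which helps start replication forks, fell 3.86-fold in females after CLP (log2 -1.95, SE 0.39, adjusted p = 0.00472, limma). Mcm10 was limma's sole call of this list within a sex. It was well above background on 3 of 5 female CLP and 5 of 5 female sham arrays, so the size of the fall is limited by detection. SAM called 1 gene of the list in each of 3 comparisons, CLP against sham in females and both landiolol comparisons in males, and 0 in the other 3. Of 62 mitosis companions, 38 were kept. Ncapg2, a condensin II subunit, fell in males by 1.68 after CLP and by 1.40 with landiolol against sham on the log2 scale (adjusted p = 0.000793 and 0.00348, limma). Ncaph, a condensin I subunit, rose in females by 1.19 and 0.99 in the same comparisons (adjusted p = 0.0037 and 0.00754, limma). Zw10, a kinetochore gene, rose in females by 1.04 with landiolol against sham. Of 30 G1/S and transcription companions, 26 were kept in males and 25 in females, and 0 were called by limma in any comparison, with 3 to 9 at an unadjusted p under 0.05 and 0 or 1 called by SAM. The medians of these 3 lists lay between -0.15 and 0.13.

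The D cyclins, which act before entry into the cycle, held larger called changes than the members described by their brightest probe. Ccnd1, encoding cyclin D1, fell after CLP, with a log2 difference of -2.47 in males and -2.23 in females (adjusted p = 1.37e-05 and 0.000587, limma), or 5.53-fold and 4.68-fold, and with landiolol against sham the difference was -1.89 and -1.75. In males, Ccnd2 fell by 1.15 after CLP and by 1.42 with landiolol against sham. Ccnd3 fell in males by 0.75 with landiolol against sham, and Cdkn2d, an inhibitor of CDK4 and CDK6, rose in males by 0.69 after CLP.

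The tissue label was checked against markers. Of those of heart muscle, 11 of 11 were kept in each sex and 0 were called by limma in any comparison, with 0 to 2 at an unadjusted p under 0.05 and 0 or 1 called by SAM. All endothelial and fibroblast markers were kept. Markers of other cell types moved with CLP. Of the macrophage and monocyte markers, 9 of 10 were kept, and 4 rose in males and 3 in females after CLP. The log2 of their summed signal was 14.8 to 15.3 in the male sham group and 15.7 to 16.1 in the male CLP group, and 15.1 to 15.3 and 15.6 to 16.1 in females. Of the 9 neutrophil markers, S100a8 and S100a9 were kept, and both rose in males and S100a8 in females. S100a8 was well above background on 0 of 5 male and 1 of 5 female sham arrays, and S100a9 on 3 and 2. Both passed the filter only through groups with CLP, where they were high, so these rises are given as a description. Their list's summed signal was 5.77 to 6.12 in the male sham group and 7.33 to 9.72 in the male CLP group. Of the fibroblast markers, 4 of 8 fell and 1 rose in males after CLP. In females 0 of 8 were called by limma, with 7 at an unadjusted p under 0.05 and 2 called by SAM. Of the 10 endothelial markers, Emcn fell in both sexes after CLP and 9 were not called, and the log2 of their summed signal was 15.7 to 16.2 in male sham and 15.9 to 16.3 in male CLP arrays, and 15.4 to 16.1 and 15.4 to 16.3 in females. Kdr rose in females with landiolol against sham. Of the T, B and NK cell markers, 10 of 15 were kept in males and 7 in females, and Gzmb fell in females. For CLP against sham in males, limma called 0 of them, with 5 at an unadjusted p under 0.05 and 4 called by SAM. In females 3 had an unadjusted p under 0.05 and SAM called 1. The median log2 difference of the list was -0.71 in males and -0.55 in females. Of 6 erythroid markers 3 were kept, of which Slc4a1 fell in both sexes after CLP and the other two were not called, with a median of -0.53 in males and 0.06 in females over the 3. Of 6 pericyte and smooth muscle markers, all kept, Rgs5 fell in females after CLP, and the log2 of the summed signal of the list was 13.8 to 14.4 in male sham and 13.3 to 13.8 in male CLP arrays. Of the myeloid precursor markers, 4 were on the array and 0 were kept in either sex. The part of these cells in the differences of Mcm4, Mcm5, Mcm7 and Cenpa was not tested.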

How the data were processed

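Left ventricles of 32 rats were measured on 1-colour Agilent rat arrays. Each array has its scanner output as deposited by the authors, made with Agilent Feature Extraction 10.5 per the submitters' processing notes, in which the processed signal is an intensity after background subtraction and detrending. A log2 table that the authors normalised by quantiles and filtered at 80% was used as an alternative only. Its columns correlated at 0.990 or more with the log2 scanner values of the same array, their medians were 9.62 to 9.64 in males and 9.70 to 9.71 in females, and any constant added ahead of the logarithm is unknown. Coordinates are those of the rn4 build in the file headers.

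Groups were taken from the sample labels. Control spots and outlier spots were left out, spots of a probe were averaged, log2 intensities were quantile-normalised within a sex, and a probe was kept when, in some group, 80% or more of the arrays read it well above background (25864 in males, 25394 in females). Comparisons used limma 3.58.1 under R 4.3.3, through lmFit and eBayes, with Benjamini-Hochberg adjustment over all probes kept, all 3 groups of a sex sharing the estimate of spread. Differences between the sexes were tested over 24768 probes kept in both, on values quantile-normalised over all 32 arrays together. SAM with 100 permutations, a 75th percentile scaling, normexp with an offset of 50, other filters, array weights, the slide or its row as a term, a trended prior and the omission of each array were alternatives. The script was tested on simulated data. The number of arrays limits the precision. All 40 genes are named. Those called in a comparison within a sex, with Mki67, Top2a, Pcna and Cdk1, are given on every sham and CLP array and by the lowest, median and highest of the landiolol arrays. The genes, the lists of companions and markers and the tests were chosen with earlier results of these data known. Each array was taken as a separate animal, since the labels give no link between samples.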

Additional observations from a re-analysis of the deposited data

Results flagged for a closer look

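A single array stood apart from the rest of its group in 4 of the 198 groups of values tested, by the gap to its nearest neighbour relative to the range of the group. Chance sets apart about 1 in 20 such groups. Kif11, a spindle motor gene, was lowest on replicate 3 of the female sham group at 3.87, where the nearest array read 4.78. Pcna, the replication clamp, was lowest on replicate 5 of the female CLP group at 10.59, with the nearest array at 11.74. Mcm5 was highest on replicate 4 of the female landiolol group at 8.62, with the nearest at 8.04. Ttk, a checkpoint kinase, was lowest on replicate 3 of the female landiolol group at 2.24, with the nearest at 4.88, on the array where 18 of 22 division genes were lowest.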

How the results depend on the processing

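Mcm4 and Mcm5 kept their direction and their call for CLP against sham in males in all 27 alternatives, with log2 differences of 0.67 to 0.81 and -0.87 to -0.65. The number of members called moved as follows. For CLP plus landiolol against sham in males, 1 became 0 with 75th percentile scaling, without a filter, with only the compared groups in the fit, with the slide as a term and with its row as a term, and 2 when the FDR levels were exchanged. In females, 2 became 1 without a filter, 0 with the row as a term, and 3, with Mcm4 added, under array weights, the authors' table, exchanged FDR levels and SAM. For CLP against sham in females, 1 became 0 with only the compared groups and with the row as a term, and 2 with exchanged FDR levels or when any probe of a gene counted. For landiolol against CLP, counting any probe gave 2 in males, Cenpa and Mcm4, and 1 in females, Cenpa. In these counts, and in the any-probe count for CLP against sham in females, Cenpa enters through its upstream probe. That probe was kept through the CLP group alone, so these counts are a description. The shares over all probes given above count each probe once and do not match counts by any probe. The row was chosen as a term after seeing the data. Leaving out each array in turn gave 2 to 2 members in males and 0 to 1 in females for CLP against sham, 0 to 0 in both sexes for landiolol against CLP, 0 to 1 in males and 0 to 2 in females for landiolol against sham, and 0 to 0 for each difference between the sexes. The 0 for CLP against sham in females came without sham replicate 1, with an adjusted p for Mcm4 of at most 0.0287 over its alternatives.

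Of 5652 single values within a sex, 5573 stayed on the same side of the threshold, 76 lost the call and 3 gained it. A change of direction was counted only where the value was called in either setting, and 0 such values reversed. Uncalled values that changed sign are among the 5573. All 3744 values of the difference between the sexes stayed uncalled. The mean correlation of the division genes was 0.548 in males and 0.482 in females with ranks, and 0.571 and 0.495 with group and slide means taken out. No scaling moved the median of all probes by over 0.1 on the log2 scale. The cause of these movements was not tested. No paired analysis was possible because the labels give no replicate numbers shared between groups. The genes well above background on few arrays, such as Cenpe and Hmmr, cannot be compared at this signal.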
